A study of Mus musculus with 3 samples.

Results

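Enterochromaffin cells are the serotonin-making endocrine cells of the gut epithelium. Here they were chosen by measured UMIs, as the cell barcodes with at least 1 UMI of Tph1, the enzyme of the rate-limiting step of serotonin synthesis in the gut, and at least 1 UMI of Chga, chromogranin A of the secretory granule, in which each of the hormone genes Nts, Cck, Gip and Sst stayed below 53.6 UMIs per 10000. A UMI is a molecular tag that counts 1 captured RNA molecule. With 800 to 50000 UMIs and at most 40% mitochondrial UMIs per barcode, 16774 of the 27235 barcodes of the 3 libraries were kept, and 59 of the 16774 were enterochromaffin cells. They were compared with 105 hormone-high endocrine cells, which held at least 1 Neurod1 UMI and were past 1 of those 4 hormone limits. All libraries came from wildtype male C57BL/6N mice aged 12 weeks, without treatment. Epithelial cells of 3 mice were pooled and live cells were sorted by exclusion of propidium iodide. Duodenum, jejunum and ileum gave 1 library each, so the mice cannot be told apart and a segment is a single sample.

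Endocrine cells are scattered among the absorptive cells of the gut lining and release hormones in response to nutrients, irritants, microbial products and stretch. Enterochromaffin cells convert tryptophan to serotonin with Tph1 and Ddc, load it into granules through vesicular monoamine transporters and release it by calcium-driven exocytosis, which acts on nerve endings and on gut movement. They are electrically excitable, and a subset also makes the tachykinin precursor Tac1, which encodes substance P. Crypt cells are described as richer in Tac1 and villus cells as richer in secretin, which is encoded by Sct.

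Enterochromaffin cells were 28 of 4281 kept duodenal barcodes (0.654%, exact 95% binomial interval 0.435 to 0.944), 9 of 4380 jejunal ones (0.205%, 0.0940 to 0.390) and 22 of 8113 ileal ones (0.271%, 0.170 to 0.410). With UMIs of Chgb, chromogranin B, and Neurod1 also required, 24, 6 and 20 cells were left (0.561%, 0.137% and 0.247% of kept barcodes). Hormone-high cells numbered 23, 18 and 64. Among both classes together, enterochromaffin cells made up 54.9% of duodenal (40.3 to 68.9), 33.3% of jejunal (16.5 to 54.0) and 25.6% of ileal barcodes (16.8 to 36.1). The duodenal and ileal intervals did not overlap, and the jejunal interval overlapped both. With 1 library per segment these intervals cover counting error only, and no test between segments was possible. With at most 20% mitochondrial UMIs, the duodenal share was 1.62%, since most duodenal barcodes lay above that limit.

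The label was checked against the markers before any comparison. Tph1 (ENSMUSG00000040046; chromosome 7 of GRCm38, 46644641 to 46672537, minus strand) had a median of 30.7 UMIs per 10000 in duodenal, 19.1 in jejunal and 30.1 in ileal enterochromaffin cells, within a range of 0.371 to 125. Chga (ENSMUSG00000021194; chromosome 12, 102554969 to 102565028, plus strand) had medians of 127, 33.9 and 44.1 in the same order. Both genes chose the cells, so these levels are a description. Chgb, chromogranin B, which the choice did not use, was found in 53 of the 59 cells, and Neurod1, an endocrine transcription factor, in 52. Among the cells, 7 held a single Tph1 UMI and 4 a single Chga UMI. The highest hormone level among the chosen cells was 10.8 UMIs per 10000, of Nts in the ileum. Of the 71 kept barcodes with Tph1 and Chga, 12 lay past a hormone limit, the nearest at 76.1 and the next at 292, both of Nts in the jejunum. A further 56 kept barcodes held Tph1 without Chga, 7 of them with at least 2 Tph1 UMIs, and 647 held Chga without Tph1.

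Several barcodes stood apart from the label. A total of 9 of the 59 lacked Chgb or Neurod1, and they held 15.5% of the duodenal (4 cells), 62.9% of the jejunal (3 cells) and 15.8% of the ileal enterochromaffin UMIs (2 cells). Another 5 had over 5% of their UMIs from the enterocyte, goblet or Paneth marker list. For the main genes, values are therefore also given for the 45 cells left without these 14, called strict cells. No doublet caller was run. Enterochromaffin cells held a median of 14531.5 duodenal, 4199 jejunal and 3179 ileal UMIs, against 19694, 15514 and 5139.5 in hormone-high cells. Their median mitochondrial share was 13.3%, 20.7% and 15.0%, against 4.85%, 5.74% and 6.43%, and the part of this difference in the results was not tested beyond the 20% limit. The libraries shared between 20 and 28 barcodes pairwise, and 0 enterochromaffin barcodes were among them.

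Levels below pool all cells of a class in a library and are given per 10000 UMIs, with exact 95% Poisson intervals in brackets that cover counting error only. Level ratios and x-fold differences between the classes, unlike the log2 fold changes, pool all 3 libraries, so segment makeup enters them. Enterochromaffin cells held 371644 duodenal, 94961 jejunal and 174339 ileal UMIs, and hormone-high cells 434666, 279564 and 591390. Across the genes, UMIs summed per library and class were compared with edgeR's quasi-likelihood test with the library as a block, over 3 sums against 3. Of 4744 genes tested, 113 were higher in enterochromaffin cells (2.38%) and 73 lower (1.54%), 3.92% in either direction, at a Benjamini-Hochberg adjusted p under 0.05. Since each sum pools the same 3 mice, these p-values measure the spread between the segments. Leaving out the jejunum gave 58 higher and 39 lower genes. In the strict cells 134 were higher and 80 lower, of which 54 and 57 were also called in all 59 cells.

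Of 6 serotonin synthesis genes tested other than Tph1, 0 passed in edgeR's test (1 at an unadjusted p under 0.05, and 0 in DESeq2), with a median log2 fold change of -0.13 beside -0.01 over all genes tested. With 6 genes, 0 lies near the 3.92% called over all genes and says little about the list. The same holds for other short lists with 0 calls below. Ddc, which makes serotonin from 5-hydroxytryptophan, stood at 5.38 (4.66 to 6.18), 1.90 and 2.98 UMIs per 10000 in duodenal, jejunal and ileal enterochromaffin cells, against 3.43, 4.26 and 2.49 in hormone-high cells (log2 fold change -0.13, adjusted p = 0.898). The levels of the classes overlapped across libraries, and in the strict cells Ddc stood at 6.57, 4.26 and 4.90. Gch1, which starts the synthesis of the tetrahydrobiopterin cofactor, stood at 2.10, 1.37 and 1.61 against 1.54, 2.11 and 1.62.

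Slc18a1, the vesicular monoamine transporter 1 (ENSMUSG00000036330; chromosome 8, 69037711 to 69089235, minus strand), was the only gene of the 4 tested for transport and breakdown that passed, and the median log2 fold change of these was 0.80. Its level was 7.27 (6.42 to 8.19) in duodenal, 3.48 (2.39 to 4.88) in jejunal and 4.07 (3.18 to 5.14) in ileal enterochromaffin cells, against 0.759, 1.04 and 0.676 in hormone-high cells. Every enterochromaffin library lay above every hormone-high library, and the strict cells held 9.01, 9.08 and 6.88 of Slc18a1. The log2 fold change was 2.45 ± 0.36 (SE) with an adjusted p of 0.00371 in edgeR's test, and the call was kept under all 16 alternatives run. After thinning each cell to 800 UMIs, 45.8% of enterochromaffin cells had a Slc18a1 UMI (84.7% unthinned, median 7335 UMIs), against 5.71% of hormone-high cells (41.0%, median 10150) and 0.0697% of T cells (0.418%, median 4110), in which the gene is not expected. Slc18a2, the vesicular monoamine transporter 2, was found with 18 UMIs in enterochromaffin and 1 UMI in hormone-high cells (ratio of levels 36.7, interval 5.79 to 1528), too few for the test, and 17 of the 18 were duodenal. The serotonin reuptake transporter Slc6a4 had 11 and 25 UMIs, and the breakdown enzyme Maoa stood at 0.700, 1.47 and 1.78 against 0.207, 1.54 and 0.490 (adjusted p = 0.197 in edgeR's test).

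Of 13 granule proteins and processing enzymes tested, 3 were lower in enterochromaffin cells (Scg2, Cpe and Scgn), 0 were higher, and the median log2 fold change was -0.86. Scg2, secretogranin II, stood at 0.592 (0.371 to 0.896) in the duodenum and at 0 in the jejunum and ileum, against 22.9, 13.7 and 20.7 in hormone-high cells. Its 22 UMIs came from 6 of the 59 cells. The log2 fold change was -6.79 ± 0.80 (SE, adjusted p = 0.00102 in edgeR's test). Cpe, the carboxypeptidase that trims prohormones, had 4.71 (4.04 to 5.46), 0.421 (0.115 to 1.08) and 2.12 (1.49 to 2.93) against 22.5, 18.7 and 14.1, a log2 fold change of -3.31 ± 0.57 (SE, adjusted p = 0.00897). Cpe stood at 5.85, 1.14 and 3.62 in the strict cells. Thinning to 800 UMIs left both past no threshold (adjusted p = 0.0652 for each), with only 183 genes tested, and Cpe also lost its call without the library block (adjusted p = 0.0760). Over the alternatives the highest adjusted p was 0.0652 for Scg2 and 0.0760 for Cpe. Scgn, secretagogin, a calcium-binding protein, had 1 UMI in enterochromaffin cells and 387 in hormone-high cells (190.0-fold lower level, interval 33.9 to 7523, adjusted p = 3.45e-04).

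Chgb was higher in enterochromaffin cells in the duodenum, at 181 (177 to 185) against 58.6, and in the ileum, at 108 (104 to 113) against 10.2, but not in the jejunum, at 45.4 (41.2 to 49.9) against 72.3. The log2 fold change was 1.36 ± 0.84 (SE) and did not pass edgeR's test (adjusted p = 0.458). In the jejunum the 6 cells with Chgb and Neurod1 held 122 UMIs of Chgb per 10000, but a Chgb UMI was a condition of their choice. A single one of them held 364 Chgb UMIs, at 173 per 10000, and the others stood between 13.5 and 96.2. With at most 20% mitochondrial UMIs the gene passed (log2 fold change 2.40, adjusted p = 0.0153), and over the alternatives the adjusted p ran from 0.0153 to 0.890. After thinning, 78.0% of enterochromaffin cells had a Chgb UMI (89.8% unthinned), against 41.0% of hormone-high cells (80.0%) and 0.348% of T cells (2.16%). The convertase Pcsk1, which cuts prohormones, did not pass (log2 fold change -0.62, adjusted p = 0.442).

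In the release machinery 1 of 12 exocytosis genes tested was higher and 0 were lower, with a median log2 fold change of -0.27. Snap25, a SNARE protein of vesicle fusion, stood at 5.95 (5.19 to 6.78), 3.48 (2.39 to 4.88) and 5.45 (4.41 to 6.66), against 1.33, 1.54 and 1.12 in hormone-high cells. The ranges of the libraries did not overlap, and Snap25 stood at 7.90, 9.36 and 8.17 in the strict cells. Its log2 fold change was 1.79 ± 0.33 (SE, adjusted p = 0.0136 in edgeR's test), but the call was lost without the duodenum (adjusted p = 0.0773), without the ileum (0.0981) and after thinning (0.0760). Over the alternatives the adjusted p ran from 5.79e-05 to 0.0981 for Snap25. Rab3c, a vesicle GTPase, was at 1.86, 0.632 and 2.24 against 0.368, 0.465 and 0.0169 and did not pass (log2 fold change 2.63, adjusted p = 0.0761).

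**Figure D1:**
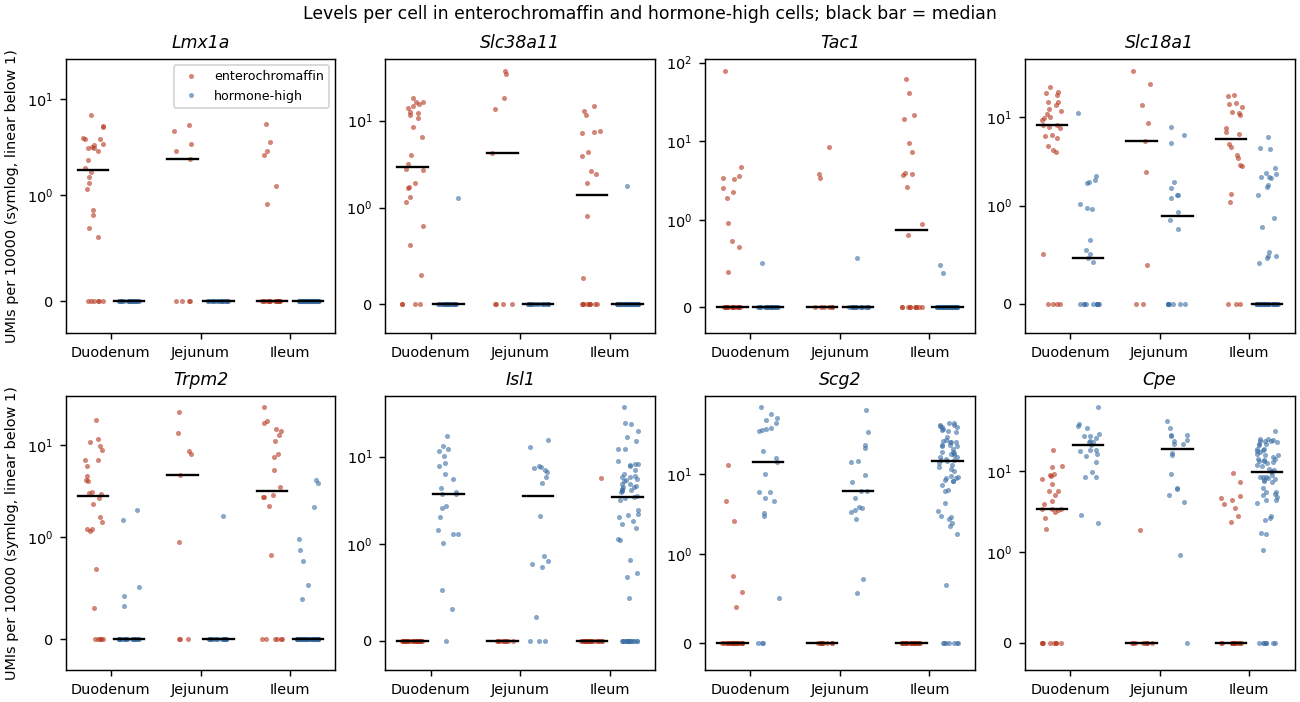
Level of 8 genes in each enterochromaffin cell (red) and hormone-high cell (blue) of the 3 libraries, in UMIs per 10000 on a symlog axis that is linear below 1; each point is 1 cell and the black bar is the median. Lmx1a is at 0 in all 105 hormone-high cells, while Isl1 has a UMI in 1 of 59 enterochromaffin cells and Scg2 in 6.

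Among the peptide hormones, which leave out the 4 genes of the choice, 1 of 6 tested was higher and 2 were lower, with a median log2 fold change of -6.71. Tac1 (ENSMUSG00000061762; chromosome 6, 7554879 to 7565834, plus strand) stood at 5.17 (4.46 to 5.95), 1.05 (0.505 to 1.94) and 8.26 (6.97 to 9.72), and hormone-high cells held 4 Tac1 UMIs in all, a level ratio of 176 (68.2 to 650.3). The log2 fold change was 7.10 ± 0.55 (SE, adjusted p = 3.28e-04 in edgeR's test). Tac1 stood at 7.26, 2.84 and 16.2 in the strict cells. It was uneven, however, with UMIs in 27 of 59 cells. A single duodenal cell held 155 of the 192 duodenal UMIs (80.7%), and a single ileal cell 99 of the 144 ileal UMIs (68.8%). Gcg, the glucagon precursor, was lower (2 against 9531 UMIs, 2339-fold, interval 647 to 19320.3, adjusted p = 3.45e-04), as was Ghrl, which encodes ghrelin (4 against 8226 UMIs, log2 fold change -9.97 ± 1.34, adjusted p = 0.00232). Without the library block the adjusted p of Ghrl was 0.0813, the highest over its alternatives.

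Sct was found in 26 of 28 duodenal, 8 of 9 jejunal and 19 of 22 ileal enterochromaffin cells. Its level was 189.8 (185 to 194), 12.7 (10.6 to 15.2) and 28.1 (25.7 to 30.7) against 404, 557 and 597 in hormone-high cells. It was lower in each library, and the difference did not pass edgeR's test (log2 fold change -3.88 ± 1.16, adjusted p = 0.101). Without the duodenum it passed (log2 fold change -5.01, adjusted p = 0.0225), within 3.42e-08 to 0.364 over the alternatives. A single duodenal cell held 3949 of the 7054 duodenal Sct UMIs (56.0%). T cells carried Sct too: after thinning 4.67% of them had a UMI, against 69.5% of enterochromaffin and 95.2% of hormone-high cells.

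Of 14 transcription factors counted here, 2 were higher in enterochromaffin cells and 4 lower, with a median log2 fold change of -0.79. Lmx1a, a LIM homeodomain factor tied to Tph1 expression in the gut (ENSMUSG00000026686; chromosome 1, 167689237 to 167848741, plus strand), stood at 2.10 (1.66 to 2.62), 1.16 (0.578 to 2.07) and 0.918 (0.525 to 1.49). It had 105 UMIs in 34 of the 59 cells and 0 in the 105 hormone-high cells, so the level was at least 71.3-fold higher, taken against a floor of 3 UMIs over the class (adjusted p = 6.89e-04 in edgeR's test). The call was kept under the 15 alternatives run, and the strict cells held 2.74, 3.12 and 1.87 of Lmx1a. Foxa1, a forkhead factor, stood at 1.70, 0.421 and 1.66 against 0.115, 0.179 and 0.473 (log2 fold change 2.23 ± 0.48, adjusted p = 0.0261) and lost its call without the duodenum (adjusted p = 0.0961) and without the jejunum (0.0860), within a range over alternatives of 4.16e-06 to 0.0974.

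Isl1, a LIM homeodomain factor of several endocrine lineages, had 1 UMI in the enterochromaffin cells and 589 in hormone-high cells, where it stood between 4.15 and 4.62 UMIs per 10000. This is a 289-fold lower level (interval 51.7 to 11439.8), with a log2 fold change of -7.98 ± 0.67 (SE, adjusted p = 3.28e-04 in edgeR's test). Pax6 was at 0.350 (0.186 to 0.598), 0 and 0.631 (0.315 to 1.13) against 2.02, 2.97 and 3.35 (log2 fold change -3.05 ± 0.49, adjusted p = 0.00632). For both genes the classes did not overlap between libraries. The ETS factor Etv1 had 3 against 462 UMIs (75.6-fold lower, interval 25.7 to 368, adjusted p = 3.63e-04), and St18 had 4 against 115 (log2 fold change -3.85 ± 0.62, adjusted p = 0.00634). Without the jejunum the adjusted p of St18 was 0.0513, within 1.06e-07 to 0.0513 over the alternatives. Fev, a factor shared with serotonergic neurons, was low in both classes, at 0.727, 0.105 and 0.516 against 0.920, 0.644 and 0.879, and did not pass (log2 fold change -0.93, adjusted p = 0.260). Pax4, a factor of early endocrine fate, had 23 UMIs in enterochromaffin and 7 in hormone-high cells (level ratio 6.69, interval 2.78 to 18.5) and was too rare for the test.

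**Figure D2:**
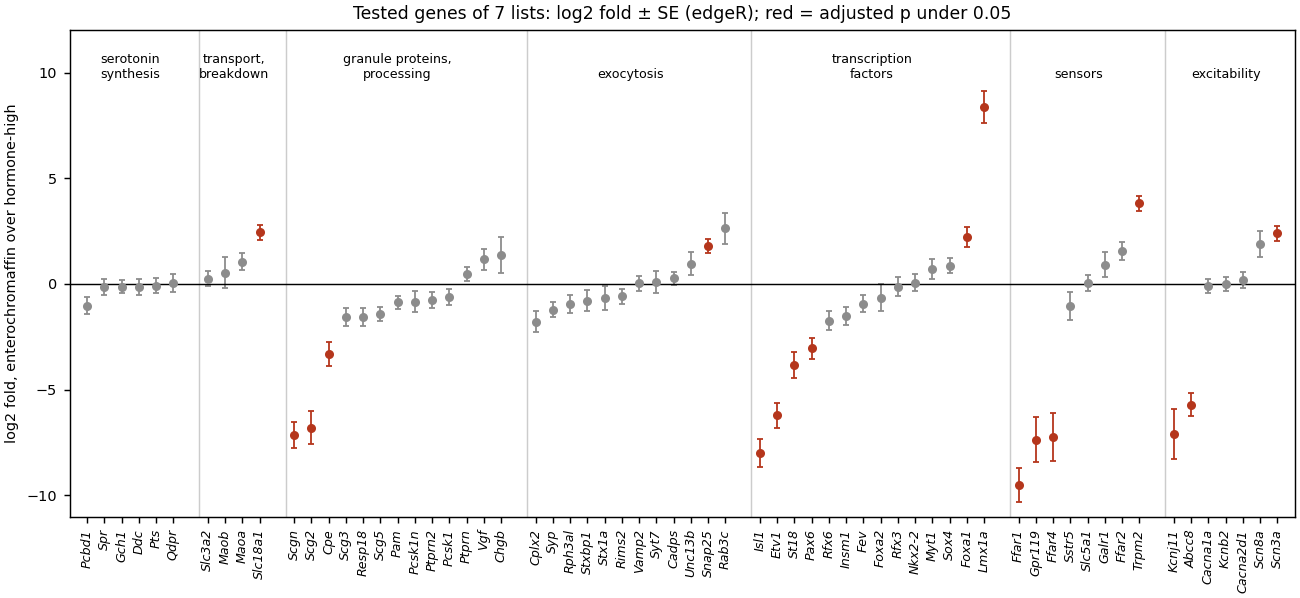
Log2 fold change of enterochromaffin over hormone-high cells for the tested genes of 7 lists. Bars are 1 SE, derived from edgeR's log2 fold change and F statistic, and red points passed at an adjusted p under 0.05. Lmx1a (0 UMIs in hormone-high cells) and Ffar1, Gpr119, Ffar4 and Kcnj11 (0 UMIs in enterochromaffin cells) have fitted values that depend on a prior count.

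Promoters are shown for Lmx1a, Slc38a11 and Tac1, which passed as higher, and for Reg4, which was high in duodenal enterochromaffin cells. Reg4 did not pass against hormone-high cells over all libraries (adjusted p = 0.278 in edgeR's test). The promoters are RefSeq sequences of GRCm38.p6 that run from 250 bases before to 50 after the annotated start, 5′ to 3′ along the gene. Capitals mark matches on either strand to an E-box of the Neurod type (CAGATG), a homeodomain core (TAATTA) and a forkhead core (TGTTTAC, shown as GTAAACA on the reverse strand), and no matches overlapped.
Lmx1a: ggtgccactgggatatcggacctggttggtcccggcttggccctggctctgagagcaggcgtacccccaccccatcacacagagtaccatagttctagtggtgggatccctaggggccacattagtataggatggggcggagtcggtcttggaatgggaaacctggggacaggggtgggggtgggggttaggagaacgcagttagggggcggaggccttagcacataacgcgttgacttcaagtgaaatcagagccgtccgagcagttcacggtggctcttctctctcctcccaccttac
Slc38a11: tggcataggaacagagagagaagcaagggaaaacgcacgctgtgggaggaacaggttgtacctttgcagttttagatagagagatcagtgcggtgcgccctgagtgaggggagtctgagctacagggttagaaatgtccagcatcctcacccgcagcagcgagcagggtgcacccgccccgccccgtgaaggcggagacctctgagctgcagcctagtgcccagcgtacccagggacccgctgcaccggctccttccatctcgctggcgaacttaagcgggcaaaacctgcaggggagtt
Tac1: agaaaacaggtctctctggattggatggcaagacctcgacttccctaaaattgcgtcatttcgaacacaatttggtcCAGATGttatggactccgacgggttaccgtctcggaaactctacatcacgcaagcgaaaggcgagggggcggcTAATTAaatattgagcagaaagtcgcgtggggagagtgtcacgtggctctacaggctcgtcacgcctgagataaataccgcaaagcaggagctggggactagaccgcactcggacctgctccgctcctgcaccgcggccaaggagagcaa
Reg4: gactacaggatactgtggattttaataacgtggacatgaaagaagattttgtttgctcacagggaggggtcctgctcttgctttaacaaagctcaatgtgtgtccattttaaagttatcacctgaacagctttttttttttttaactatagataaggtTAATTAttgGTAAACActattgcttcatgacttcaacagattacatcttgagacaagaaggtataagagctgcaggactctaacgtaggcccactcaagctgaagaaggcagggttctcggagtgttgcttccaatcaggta
Tac1 (chr6:7554811-7555110, plus strand) held the E-box at base 78 and the homeodomain core at base 151. In Reg4 (chr3:98221906-98222205, plus strand) the homeodomain core began at base 159 and the forkhead core at base 168. Lmx1a (chr1:167689308-167689607, plus strand) and Slc38a11 (chr2:65363977-65364276, minus strand) held none of the 3. Of all 32851 promoters of this length, 17.2% held the E-box, 5.29% the homeodomain core and 3.65% the forkhead core. These matches are a description of letters only.

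Of 8 sensors of nutrients and irritants tested, 1 was higher and 3 were lower, with a median log2 fold change of -0.50. Trpm2, a calcium-permeable channel opened by oxidative stress, stood at 2.99, 1.79 (1.04 to 2.87) and 3.33 (2.53 to 4.30), against 0.207, 0.143 and 0.169. Every enterochromaffin library lay above every hormone-high library (log2 fold change 3.82 ± 0.36, adjusted p = 3.63e-04 in edgeR's test, kept under all 16 alternatives). Strict cells held 3.84, 4.82 and 4.90 of Trpm2. After thinning, 30.5% of enterochromaffin cells had a Trpm2 UMI (76.3% unthinned), against 1.90% of hormone-high cells (13.3%) and 0.0697% of T cells (0.209%). The receptors of long-chain fatty acids Ffar1 (0 against 405 UMIs) and Ffar4 (0 against 71) and the lipid amide receptor Gpr119 (0 against 89) were at least 66.3-fold, 11.6-fold and 14.6-fold lower, with adjusted p of 5.49e-04, 0.0100 and 0.00657. Ffar2, a receptor of short-chain fatty acids, stood at 1.70, 1.16 and 1.55 against 0.874, 0.429 and 0.203 and did not pass (log2 fold change 1.56, adjusted p = 0.0736). Piezo1, Piezo2 and Glp1r had 0 UMIs in both classes, which allows up to 3 UMIs in a class at this depth.

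Excitability genes gave 1 higher and 2 lower of 7 tested, with a median log2 fold change of 0.00. Scn3a, a voltage-gated sodium channel, was at 4.92 (4.24 to 5.69), 2.11 (1.29 to 3.25) and 5.10 (4.10 to 6.28) against 0.483, 0.501 and 1.17, so the classes did not overlap (log2 fold change 2.40 ± 0.36, adjusted p = 0.00439 in edgeR's test). Strict cells held 6.57, 5.68 and 7.58 of Scn3a. The subunits of the ATP-sensitive potassium channel, which couples metabolism to membrane voltage in beta cells, were lower. Kcnj11 had 0 against 62 UMIs (at least 10.1-fold lower, adjusted p = 0.0131, 0.0526 without the jejunum and 2.28e-07 to 0.0526 over the alternatives), and Abcc8 had 2 against 228 (56.0-fold lower, interval 15.3 to 465, adjusted p = 3.63e-04).

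Of 6 tested genes otherwise tied to enterochromaffin cells, 2 were higher and 2 lower, with a median log2 fold change of 1.40. Slc38a11, a putative amino acid transporter (ENSMUSG00000061171; chromosome 2, 65316430 to 65364034, minus strand), stood at 4.06 (3.44 to 4.77), 3.69 (2.57 to 5.13) and 1.49 (0.974 to 2.19). Hormone-high cells held 3 UMIs, a level ratio of 144 (48.6 to 704), and the log2 fold change was 6.61 ± 0.54 (SE, adjusted p = 3.28e-04 in edgeR's test). After thinning, 33.9% of enterochromaffin cells (71.2% unthinned) had a UMI, against 0 of 105 hormone-high cells (1.90% unthinned), where a floor of 3 cells is 2.86%, and 0 of 1435 T cells. Rgs2, a regulator of G-protein signalling, was at 7.80, 1.16 and 5.33 against 2.46, 0.465 and 1.27 (log2 fold change 1.60 ± 0.33, adjusted p = 0.0224) and lost its call without the duodenum (0.0597) or the ileum (0.181), with a range over the alternatives of 7.75e-05 to 0.338. Its relative Rgs4 was lower, with 10 UMIs in 1 cell against 372 (log2 fold change -4.24 ± 0.94, adjusted p = 0.0321, 0.184 without the jejunum, 1.08e-12 to 0.184 over the alternatives). Asic5, a proton-sensitive channel relative, was lower at 23 against 690 UMIs (log2 fold change -4.77 ± 0.53, adjusted p = 6.89e-04), and without the library block its adjusted p was 0.0617, the highest over its alternatives.

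The largest log2 fold changes outside these lists included Cwh43, with 81 UMIs against 0 (at least 55.0-fold higher, adjusted p = 0.00102 in edgeR's test), and Tpbg, the surface glycoprotein trophoblast glycoprotein, with 248 against 3 (level ratio 168, interval 57.0 to 822, adjusted p = 3.63e-04). Cdk14, a cyclin-dependent kinase, had 81 against 3 UMIs (55.0, interval 18.2 to 272, adjusted p = 0.00181). Krt19, a keratin of simple epithelia, stood at 24.9, 11.5 and 20.1 against 0.253, 0.215 and 1.71 (log2 fold change 5.03 ± 0.65, adjusted p = 0.00192), but after thinning it did not pass (3.37, adjusted p = 0.105, the highest over its alternatives). In the other direction Rbp4, the retinol carrier, had 0 against 1801 UMIs, at least 295-fold lower (adjusted p = 3.63e-04). Of the 121 genes named by the rules and tested here, 47 passed, and 28 of the 47 passed under every alternative in which they were tested. A gene filtered out of an alternative was not counted as lost, and thinning left only 183 genes to test.

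Hormone-high cells are mixed, with 66 Nts-high cells (2, 9 and 55 in duodenum, jejunum and ileum) and 39 high for Cck, Gip or Sst (21, 9 and 9). In a fit of 3 classes with 8 sums, 6 of 3537 genes were higher than in Nts-high cells (0.170%) and 18 lower (0.509%), 0.679% in either direction, while 119 were higher (3.36%) and 76 lower (2.15%), 5.51% in either direction, than in the Cck-, Gip- or Sst-high cells. The duodenal Nts-high sum was left out for having under 5 cells. In simulated data, 15% of genes changed by a log2 fold change of 2 were recovered against Nts-high cells and 74% against the others. The lower count against Nts-high cells is therefore no measure of likeness between the classes. Both comparisons share the enterochromaffin sums, and without the jejunum both gave 0 calls in edgeR, with 474 and 919 genes at an unadjusted p under 0.05, and 13 higher and 28 lower against Nts-high, 203 and 93 against the others, in DESeq2 on all libraries. Tac1 passed against both kinds (log2 fold change 10.13 ± 1.05, adjusted p = 0.00431, and 6.00 ± 0.60, adjusted p = 0.00116), as did Slc38a11 (6.37 ± 0.79, adjusted p = 0.00658, and 6.51 ± 0.64, adjusted p = 0.00101). Isl1, Scg2, Scgn, Etv1, Abcc8 and Ffar1 were lower against both. For Slc18a1 the log2 fold change was 1.86 ± 0.46 against Nts-high cells (adjusted p = 0.133) and 3.09 ± 0.42 against the others (adjusted p = 0.00297). Lmx1a had adjusted p of 0.0566 and 0.00831. Trpa1, an irritant-sensing channel, was not in the fit of 2 classes, and its log2 fold change was 0.78 ± 0.83 against Nts-high cells (adjusted p = 0.884) and 7.02 ± 0.78 against the others (adjusted p = 0.00116). The difference between these pairs of values was not tested. For Trpa1 the enterochromaffin cells held 197 duodenal, 7 jejunal and 0 ileal UMIs, and no duodenal Nts-high sum was in the fit. Its value against Nts-high cells is therefore no measure of likeness in the duodenum.

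Markers of other cell types moved with the class. Summed enterocyte marker levels were 208, 963 and 224 UMIs per 10000 in enterochromaffin cells of the duodenum, jejunum and ileum, against 94.8, 257 and 74.0 in hormone-high cells. In the strict cells they were 103, 226 and 154. Strict cells were chosen for few UMIs of the enterocyte, goblet and Paneth lists. The choice itself lowers these markers, so their strict values are a description and no independent check. Of 13 enterocyte markers tested, 3 were higher in edgeR's test (Apoc3, Lct and Mttp), with a median log2 fold change of 1.42. Their log2 fold changes were 2.29, 1.55 and 1.65 with adjusted p of 0.0198, 0.0319 and 0.0259, and 0.83, -0.62 and -0.48 in the strict cells with adjusted p of 0.288, 0.656 and 0.617. Leaving out single libraries also ended these calls. Without the ileum the adjusted p was 0.0961 for Apoc3, 0.159 for Lct and 0.188 for Mttp, without the jejunum 0.0563, 0.137 and 0.116, and without the duodenum 0.0766 for Lct and 0.0610 for Mttp. All 3 Paneth markers tested were higher (Lyz1, Itln1 and Defa24, log2 fold changes between 2.01 and 2.60), and in the strict cells none of them passed (adjusted p = 0.673, 0.522 and 0.504). Without the jejunum they did not pass either (0.0952, 0.0686 and 0.0885), nor did Defa24 without the ileum (0.392). Of 4 goblet markers tested 0 passed in edgeR's test, with 1 at an unadjusted p under 0.05 and 1 called in DESeq2. Of 7 tuft markers 6 had no UMI, Dclk1 and Trpm5 among them, and of 8 mast cell markers 5, Cpa3 and Fcer1a among them. Other lists were mostly above 0. Only Lgr5 and Ascl2 of 7 stem and cycling, Cd3e of 7 T cell and Cd79a of 6 B and plasma cell markers had no UMI. Ileal enterochromaffin cells held 12, 15 and 21 UMIs of these 3 lists, and duodenal ones 57 of the B and plasma cell list. Without the endocrine cells richest in enterocyte UMIs, 100 genes were higher and 76 lower than in hormone-high cells, and with the 50 enterochromaffin cells that held Chgb and Neurod1 these numbers were 88 and 57.

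Levels in enterochromaffin cells differed between the segments more than the counting error for a set of genes. With 30 or more UMIs over all 59 cells, 3481 genes could be compared, of which 114 were at least 4-fold higher in the duodenum than in the ileum with intervals apart (3.27%) and 82 at least 4-fold higher in the ileum (2.36%). With 1 library per segment there is no test, and the segment cannot be told apart from the library. In the strict cells the numbers were 83 and 40, from 2207 genes. Apart from genes of the choice, listed serotonin synthesis genes (0 of 6), transcription factors (0 of 8) and excitability genes (0 of 6) with enough UMIs reached this limit in neither direction. With so few genes per list, 0 lies near the shares over all genes and says little about these lists. The list of factors did not hold Onecut2, which is given below. The ratio of duodenum to ileum was 0.965 for Scn3a (0.745 to 1.26) and 0.898 for Trpm2 (0.648 to 1.26), and 1.31 for Tph1 (1.16 to 1.47), which chose the cells. The same ratio was 2.72 for Slc38a11 (1.79 to 4.31), 2.29 for Lmx1a (1.32 to 4.20) and 1.78 for Slc18a1 (1.37 to 2.35).

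Among genes tied to enterochromaffin cells, Reg4 and Trpa1 were far higher in the duodenum. Reg4, a secreted lectin, stood at 261 (256 to 266) in duodenal, 7.58 (5.93 to 9.55) in jejunal and 2.12 (1.49 to 2.93) in ileal enterochromaffin cells, a ratio of duodenum to ileum of 123 (89.1 to 175). The ratio of Reg4 was 27.3 for the mean of the cells' own values and ran from 24.8 after thinning to 279 with at most 20% mitochondrial UMIs. It was found in 22 of 28, 5 of 9 and 6 of 22 cells, and the 5 duodenal cells with most UMIs held 71.6% of them. Duodenal hormone-high cells held 2 Reg4 UMIs, and ileal ones 279, in 7 cells. Against hormone-high cells Reg4 did not pass edgeR's test (log2 fold change 6.55 ± 2.92, adjusted p = 0.278), and without the ileum it passed (11.16, adjusted p = 3.10e-04), within 6.86e-06 to 0.773 over the alternatives. Trpa1 (ENSMUSG00000032769; chromosome 1, 14872648 to 14918862, minus strand) had 5.30 (4.59 to 6.09), 0.737 (0.296 to 1.52) and 0, in 18 of 28, 2 of 9 and 0 of 22 cells, at least 30.8-fold higher in the duodenum.

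Several peptide genes and Afp were also highest in the duodenum. Cartpt, the CART neuropeptide precursor, stood at 6.35, 0.737 and 0 (at least 36.9-fold) in 14 of 28, 2 of 9 and 0 of 22 cells. Ucn3, urocortin 3, had 50, 0 and 1 UMIs (ratio of duodenum to ileum 23.5, interval 4.02 to 945, or 7.82 with the ileal count set to the floor of 3 UMIs). Sct was 6.75-fold higher in the duodenum (6.16 to 7.42), with 56.0% of the duodenal UMIs from the single cell named above. Afp, alpha-fetoprotein, had 2229, 3 and 2 UMIs (60.0, 0.316 and 0.115 UMIs per 10000, a ratio of 523 with an interval of 145 to 4319.7) in 12 of 28 duodenal cells, 1 jejunal and 1 ileal cell. With the ileal count at the floor of 3 UMIs the ratio of Afp was 349, and it was 90.3 for the mean of the cells' own values and 26.7 after thinning. No UMI of Afp fell in the 105 hormone-high cells, and the other kept duodenal barcodes stood at 0.00398. Onecut2, a transcription factor of the upper gut, was found in all 28 duodenal cells, 3 of 9 jejunal and 0 of 22 ileal cells, at 6.13, 1.05 and 0 (at least 35.7-fold). Hormone-high cells followed the same order, at 3.93, 1.18 and 0, and the other barcodes at 3.57, 0.758 and 0.0208. Ambp was at 16.8, 4.00 and 0 and Myl7 at 7.53, 1.47 and 0, while jejunal and ileal hormone-high cells held 20.2 and 8.93 of Myl7.

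Reg1 and S100g were higher in the duodenum as well, at 19.4 and 8.72 against 0 in the ileum, and the other kept duodenal barcodes stood at 43.1 and 32.3. In strict cells Reg1 was at 3.27. The 8 genes with the largest ratios in the ileum were Fabp6, Defa21, Clca1, Guca2a, Spink4, Muc2, Defa24 and Ccl6. Fabp6, the ileal bile acid binder of enterocytes, was found in all 22 ileal enterochromaffin cells at 45.9 (42.8 to 49.2) and in 0 duodenal ones, and the remaining ileal barcodes stood at 160.2. In the 17 strict ileal cells it was at 12.8. Of the 7 goblet markers with enough UMIs 6 were higher in the ileum and of 5 Paneth markers 5. Muc2, the goblet cell mucin, stood at 18.4 and at 1.87 in the strict cells, and Clca1 at 39.9 and 1.17. Summed goblet marker levels in ileal enterochromaffin cells were 415, against 36.1 in the strict cells and 97.0 in ileal hormone-high cells. Summed Paneth levels were 31.0, 8.75 and 3.72 in the same order. The choice of strict cells itself lowers both lists. Of the ileal cells left out, 1 with 26010 UMIs held 13.4% of them in the goblet list and 1 with 36343 held 9.08%. Another with 3628 UMIs held 10.4% in the Paneth list. The medians over ileal enterochromaffin cells were 43.3 goblet and 10.8 Paneth UMIs per 10000. Defa21, Guca2a, Spink4 and Ccl6 had under 30 UMIs over all strict cells.

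**Figure D3:**
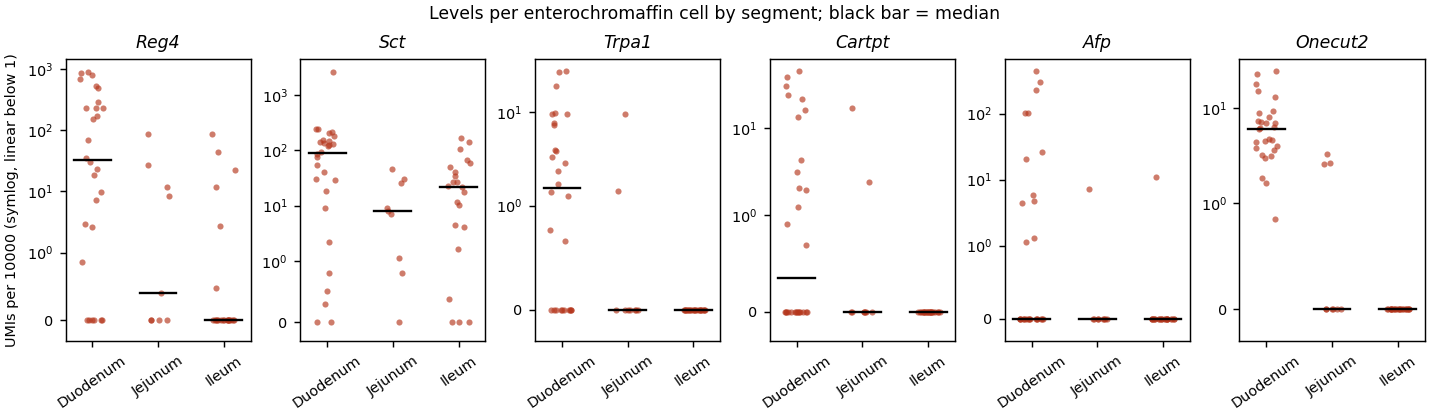
Level of 6 genes in each enterochromaffin cell by segment, in UMIs per 10000 on a symlog axis that is linear below 1; each point is 1 cell and the black bar is the median. Onecut2 is found in all 28 duodenal and 0 of 22 ileal cells, and Trpa1 and Cartpt in 0 ileal cells.

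Tac1 was found in 12 of 28 duodenal, 3 of 9 jejunal and 12 of 22 ileal enterochromaffin cells, and the cells with and without it are described here without a test. After thinning to 800 UMIs the shares were 10.7% in the duodenum, 27.3% in the ileum and 16.9% over all 59 cells. In the duodenum the 12 cells with Tac1 held a median of 15866 UMIs and the 16 without it 10872. Reg4 was found in 12 of 12 and 10 of 16, with medians of 233 and 5.13 UMIs per 10000. Trpa1 was found in 12 of 12 and 6 of 16, with medians of 7.47 and 0. Ucn3 had 49 UMIs in the cells with Tac1 and 1 in the others, and Afp 2177 and 52, in 9 and 3 cells. Chga had a median of 168 and 47.5, and Tph1, the enzyme itself, 26.5 and 31.6. Among strict duodenal cells, 11 with and 11 without Tac1, the median depth was 15322 and 6092 UMIs. Reg4 was then found in 11 and 9 cells with medians of 233 and 9.85, Trpa1 in 11 and 5 cells, and Chga had medians of 177 and 80.3. The duodenal cells with Tac1 were the deeper ones in both sets, and the part of depth in these differences was not tested.

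Sct did not follow this split evenly. Its median was 105 in duodenal cells with Tac1 and 69.2 in those without, while the summed level was 88.2 and 295, where the single Sct-rich cell had no Tac1. In the strict cells the order of the Sct medians turned, at 118 and 143, a difference of -25.3 UMIs per 10000. The 3 cells with the highest Tac1 levels held few Sct UMIs: a duodenal cell had 155 Tac1 and 1 Sct UMI, and ileal cells had 99 and 4, and 14 and 0. In the ileum the medians of Sct were 26.4 and 10.9 in the 12 cells with and the 10 without Tac1, and Trpa1 and Cartpt were at 0 in both.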

How the data were processed

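Single cells of the duodenum, jejunum and ileum were measured with 3′ chemistry, with 1 pooled library per segment. The authors counted UMIs per gene and barcode with Cell Ranger 3.0.2 on GRCm38 and deposited whole, unnormalized counts for 31053 genes and 27235 barcodes. The libraries hold 98518847, 87656078 and 78074516 UMIs in the duodenum, jejunum and ileum.

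The UMI and mitochondrial limits are the study's, while its limit of 200 to 6000 genes per cell was not applied and would have kept the same 59 cells. Members, gene lists and tests were chosen with earlier results of these data known. UMIs were summed per library and class (at least 5 cells) and tested in edgeR 4.0.16 under R 4.3.3 (filterByExpr, TMM, quasi-likelihood test, library block, Benjamini-Hochberg adjustment, threshold 0.05). The 7 genes that chose the classes (Tph1, Chga, Neurod1, Nts, Cck, Gip and Sst) stayed in the fit and in the adjustment of p-values. Their own test results were left out of all counts and are not given. The SE given with edgeR's log2 fold changes is their absolute value over the square root of the F statistic. Intervals used Python 3.11.15 and scipy 1.17.1. Genes were named from 18 lists, as the 12 largest log2 fold changes in each direction with the same sign in every library (without mitochondrial genes and predicted genes named Gm or Rik), and as the 8 largest segment ratios in each direction. Stem, T cell, tuft and mast cell lists had 0 genes tested against hormone-high cells, B and plasma cell markers 0 of 2 passing in edgeR (0 at an unadjusted p under 0.05, 0 in DESeq2), and the BMP and maturation list 0 of 7 (2 and 0). T cells held at least 3 UMIs of Cd3d, Cd3e, Cd3g and Trac. GENCODE M21 (GRCm38) gave the positions. A listed transcription factor stayed in the fit but is not reported here or counted in its list.

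Alternatives covered DESeq2 1.42.0, normalization, the gene and cell filters, thinning, the library block, stricter members and leaving out each library. In data simulated for enterochromaffin against hormone-high cells over 4751 genes, 4.5%, 79.5% and 93.5% of 200 genes changed by a log2 fold change of 1, 2 and 3 were recovered, with 2, 11 and 11 false calls. Promoters were matched by symbol to RefSeq, and 32851 were searched for motifs.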

Additional observations from a re-analysis of the deposited data

Results flagged for a closer look

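For 6 genes of the lists other than cell type markers, enterochromaffin cells lay above hormone-high cells in 1 or more segments and below them in another. Their counting intervals were apart. The share of all genes that do so was not counted, so the number 6 is no result about the lists. The difference between segments was not tested, since each segment is 1 library. In the jejunum, 3 cells without Chgb or Neurod1 held 62.9% of the enterochromaffin UMIs. Chgb stood at 181 against 58.6 UMIs per 10000 in the duodenum, 108 against 10.2 in the ileum and 45.4 against 72.3 in the jejunum. The 6 strict jejunal cells, which had to hold a Chgb UMI, were at 122, with 364 of their Chgb UMIs in 1 cell. Ddc stood at 5.38 against 3.43 in the duodenum and 1.90 against 4.26 in the jejunum, where Ddc in the strict cells was at 4.26 too. Qdpr, which recycles the cofactor of Tph1, stood at 3.15 against 1.47 in the duodenum and 0.737 against 2.15 in the jejunum, with Qdpr at 1.99 in the strict cells. Pcsk1n, a granule protein, was above in the duodenum, at 8.61 against 4.88, and below in the jejunum, at 1.58 against 5.72 (4.26 in strict cells), and in the ileum, at 5.22 against 12.6. Reg4 was above in the duodenum, at 261 against 0.0460, and the jejunum, at 7.58 against 0.0358, and below in the ileum, at 2.12 against 4.72. Iapp, the amylin precursor, was below in the duodenum, at 0.0538 against 53.5, and the jejunum, at 0 against 16.4. It was above in the ileum, at 1.15 against 0.203, where all 20 enterochromaffin UMIs came from 1 cell.

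Among the 10461 barcodes outside the cell limits, 8 held Tph1 and Chga with no hormone past its limit, 3 duodenal, 1 jejunal and 4 ileal, and 7 of the 8 also held Chgb and Neurod1.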

How the results depend on the processing

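Most genes with a log2 fold change of 1 were missed in simulated data, and thinned counts left 183 genes to test. Against hormone-high cells, counts of higher and lower genes were 113 and 73. They were 189 and 133 with at most 20% mitochondrial UMIs, 2 and 2 after thinning, 321 and 272 without the gene filter, and 32 and 42 without the library block. Higher genes were 68 with at least 10 cells per sum and 189 without TMM, where the median log2 fold change over all genes was 0.13 and 71.3% of calls were higher, against 60.8%. Leaving out 1 library gave 58 to 114 higher and 39 to 91 lower, lowest without the jejunum. Against Nts-high cells (6 and 18), DESeq2 gave 13 and 28, the study's Tph1 limit 28 and 34, the 20% mitochondrial limit 1 and 5, thinning 0 and 0, no gene filter 56 and 108, strict cells 29 and 40, and removal of the endocrine cells richest in enterocyte UMIs 2 and 7. Higher genes were 12 without hormone genes in the totals, 25 in cells with Chgb and Neurod1 and 16 without TMM. Leaving out 1 library gave 0 to 11 and 0 to 22. Against Cck-, Gip- or Sst-high cells (119 and 76), the 20% limit gave 60 and 29, thinning 3 and 20, no gene filter 466 and 285, and removal of the enterocyte-rich cells 53 and 35. Higher genes were 203 in DESeq2, 213 without TMM and 58 without the block. Leaving out 1 library gave 0 to 217 and 0 to 99. The fit of 3 classes with at least 10 cells per sum could not be fitted.

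The duodenal share was 1.62% at the 20% limit. Genes at least 4-fold apart between segments (114 and 82) were 11 and 10 after thinning, and ileal ones were 46 without the enterocyte-rich cells, 47 at the Tph1 limit and 40 in strict cells. Cells with Tac1 were 28.8% at 2 UMIs or more, and 16.9%, 10.7% (duodenum) and 27.3% (ileum) after thinning. Directions turned for Lct (log2 fold change -0.09 at the Tph1 limit, -0.62 in strict cells), Mttp (-0.48 in strict cells, -1.09 without the enterocyte-rich cells), Slc5a1 (-1.45 in strict cells) and the Sct median by Tac1 in the duodenum (-9.01 without those cells, -29.7 with Chgb and Neurod1, -25.3 in strict cells). The cause of these turns was not tested. Lct and Mttp are on the enterocyte list that set the strict and the enterocyte-rich cells. Of the 47 named genes past the threshold 28 passed under every alternative in which they were tested. The library block pairs the class sums of a library, and the labels number no further replicates within a segment.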
